A study of Mus musculus with 14 samples.

Results

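The genes of the proteasome were read in the hearts of 14 mice by counting the 3′ ends of transcripts. The members are the protein-coding genes of GENCODE M21 whose symbol begins with Psma, Psmb, Psmc, Psmd, Psme, Psmf or Psmg and a digit. There are 50 of them among the 54532 gene identifiers of the count tables, and 47 passed the filter on low counts in each comparison. One of the 50, *Psmc3ip*, answers to the rule by its name alone and encodes a factor of meiotic recombination rather than a proteasome subunit.

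Hearts came from C57BL/6 mice that the labels place at post natal day 180, while the study's text describes older animals. Of the libraries, 4 are labelled WT and 4 carry the label of a line called YG8 here, distinct from YG8sR, in which a constitutive null allele of the targeted mouse gene is homozygous and a human transgene with a long intronic repeat is hemizygous. The WT mice are littermates that lack the transgene. The other 6 come from 3 female and 3 male KIKO-700 mice, in which 1 allele of that gene is deleted and the other holds a knocked-in repeat, so that the sexes share 1 genotype. The study describes no driver that limits an allele to a cell type, and RNA was extracted from hearts without sorting of cells. The KIKO-700 mice were set against each other by sex, because WT hearts of their own cohort were not analysed here. All directions are those of the labels, since it is not established here that each label in the YG8 experiment matches its genotype.

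The 26S proteasome degrades proteins marked with chains of ubiquitin. Its 20S core is a barrel of α and β rings, in which the β subunits encoded by *Psmb5*, *Psmb6* and *Psmb7* cut peptide bonds. A 19S cap of ATPases (*Psmc* genes) and other subunits (most *Psmd* genes) recognizes ubiquitin, unfolds the substrate and feeds it into the barrel. Interferon induces 3 alternative catalytic subunits, *Psmb8*, *Psmb9* and *Psmb10*, which replace *Psmb5*, *Psmb6* and *Psmb7* to form the immunoproteasome that prepares peptides for MHC class I. PA28 (*Psme1*, *Psme2* and *Psme3*) and PA200 (*Psme4*) are alternative caps, and the *Psmg* genes encode chaperones that assemble the core. In heart muscle the system turns over sarcomere proteins.

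Total counts ran from 5226233 to 11650840 per library, and the members received 0.190% to 0.249% of them. The defining markers of cardiomyocytes were present in every group, at 19251 to 37846 CPM (the usual count scaled to library size, with TMM factors within an experiment) over 10 genes in the WT and YG8 libraries. *Xist*, an RNA of female cells, stood at 37.6 CPM or more in WT 1, WT 2, WT 4, YG8 1 and YG8 3 and at no more than 0.325 CPM in WT 3, YG8 2 and YG8 4, although the study describes the animals of this experiment as males. WT 2 stood apart in B cell markers, with 553 CPM over 7 genes. In the KIKO-700 hearts, *Xist* followed the labelled sex. Male 2 and male 3 lay close to each other and male 1 lay farther off, with a chi-square per degree of freedom between libraries of 6.57 against 27.3 and 38.0. In whole tissue, fewer cells of a type and less RNA per cell cannot be told apart.

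Promoters of *Psmb5* and *Psmb6* and of their interferon-inducible counterparts *Psmb8* and *Psmb9* are shown because the results on the catalytic sites turn on these pairs. Each window holds the 250 bases before and the 50 bases after a transcript start, from RefSeq on GRCm38.p6. The windows lie at chr14:54617946-54618245 on the minus strand (*Psmb5*), chr11:70525107-70525406 on the plus strand (*Psmb6*), chr17:34197945-34198244 on the plus strand (*Psmb8*) and chr17:34187281-34187580 on the minus strand (*Psmb9*). Capitals mark matches, on either strand, to TGACNNNGC (the core of the antioxidant response element), CCAAT (the box bound by NF-Y) or TTCNNNGAA (the STAT motif), or to the interferon-stimulated response element as a pair of GAAA runs parted by 2 bases.
Psmb5: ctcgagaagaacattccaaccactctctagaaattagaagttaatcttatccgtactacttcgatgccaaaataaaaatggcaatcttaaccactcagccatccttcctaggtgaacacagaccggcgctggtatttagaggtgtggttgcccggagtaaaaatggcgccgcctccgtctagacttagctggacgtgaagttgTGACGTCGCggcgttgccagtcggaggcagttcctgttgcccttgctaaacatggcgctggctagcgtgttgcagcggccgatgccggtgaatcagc
Psmb6: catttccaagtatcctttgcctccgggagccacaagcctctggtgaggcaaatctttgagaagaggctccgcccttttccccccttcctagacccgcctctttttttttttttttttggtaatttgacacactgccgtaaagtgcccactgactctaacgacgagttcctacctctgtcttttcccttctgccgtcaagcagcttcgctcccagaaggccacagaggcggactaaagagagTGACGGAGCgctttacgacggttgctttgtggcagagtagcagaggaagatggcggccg
Psmb8: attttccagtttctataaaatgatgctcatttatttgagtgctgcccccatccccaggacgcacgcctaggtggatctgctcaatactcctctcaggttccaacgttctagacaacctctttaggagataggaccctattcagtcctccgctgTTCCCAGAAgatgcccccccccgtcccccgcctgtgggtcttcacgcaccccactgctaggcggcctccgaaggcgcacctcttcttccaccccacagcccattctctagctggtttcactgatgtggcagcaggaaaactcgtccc
Psmb9: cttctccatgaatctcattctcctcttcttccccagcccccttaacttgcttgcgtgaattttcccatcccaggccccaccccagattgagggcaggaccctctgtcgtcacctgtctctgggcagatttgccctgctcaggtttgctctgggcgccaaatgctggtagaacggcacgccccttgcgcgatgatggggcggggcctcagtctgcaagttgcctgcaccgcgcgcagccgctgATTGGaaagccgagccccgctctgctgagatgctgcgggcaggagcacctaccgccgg

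*Psmb5* and *Psmb6* each held 1 match to TGACNNNGC. That motif occurred in 13.3% of the 45 windows found for 42 of the members and in 12.4% of all 32851 windows of the table. *Psmb8* held 1 match to TTCNNNGAA, present in 6.67% of the members' windows and 8.30% of all. *Psmb9* held 1 match to CCAAT, present in 33.3% and 37.4%. The interferon-stimulated response element stood in 11.1% of the members' windows, those of *Psmb3*, *Psmd4*, *Psmd9*, *Psme1* and *Psmg4*, and in 3.44% of all. A match describes letters and not a bound site. The windows of *Psmb8* and *Psmb9* lie inside the genes as GENCODE bounds them. On their strands those genes begin at 34197721 and 34187764, and the bases before these points are not in the windows shown.

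In the YG8 experiment no proteasome gene passed the adjusted threshold of 0.05 (edgeR quasi-likelihood test, Benjamini-Hochberg over 11875 genes), where 0% of all genes did. At an unadjusted p under 0.05, the level at which the study counts its genes, 3 of the 47 members passed, all higher in the libraries labelled YG8. They were *Psma7*, *Psma1* and *Psmb5*, all of the 20S core. They make up 6.38% of the members tested, beside 6.05% of all genes called in either direction (3.04% higher and 3.01% lower). With DESeq2 4 members passed (beside 6.54% of all genes) and with limma-voom 3 (beside 8.99%), and at the adjusted threshold each tool passed 0 members (beside 0.0590% of all genes with DESeq2 and 0% with limma-voom). The median log2 fold change of the members was 0.09, beside −0.01 over all genes tested. Where libraries were scaled by their size and nothing else, the median of all genes was −0.21 and that of the members −0.07, and the members called at an unadjusted p were then 0 higher (beside 1.44% of all genes) and 2 lower (*Psmd4* and *Psmb9*, beside 5.68%).

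**Figure D1:**
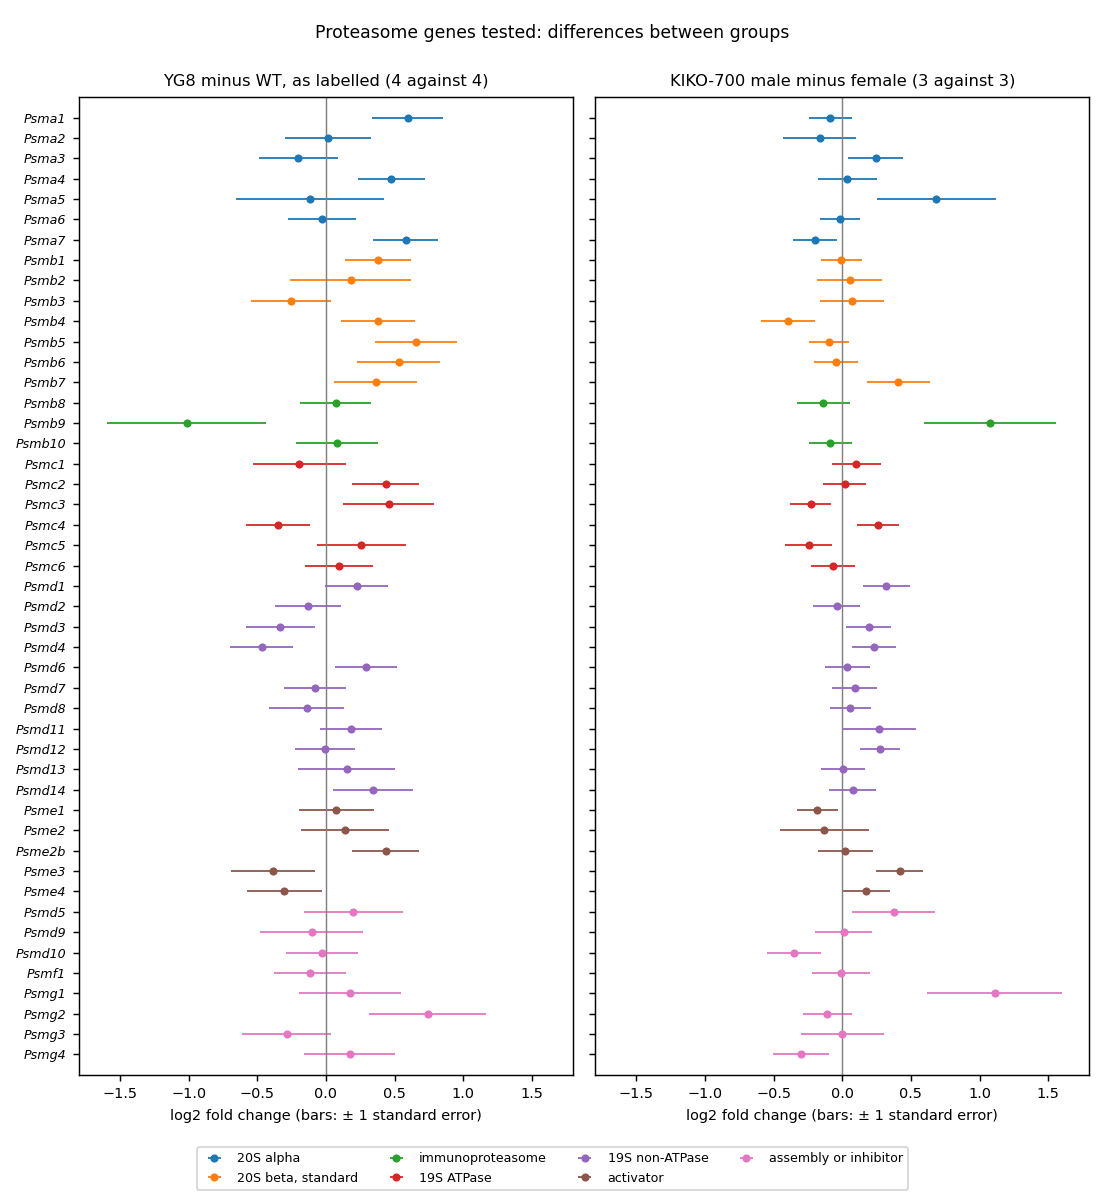
Log2 fold change of each of the 47 proteasome genes tested (points, with bars of 1 standard error from edgeR), coloured by class, for libraries labelled YG8 minus WT (left) and KIKO-700 male minus female (right). On the left 6 of 7 standard β subunits lie above 0 and *Psmb9* lies at −1.01, and on the right *Psmb9* and *Psmg1* lie above 1.

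Of the 7 standard β subunits, 6 were above 0 in YG8, with a median log2 fold change of 0.38 and a range from −0.25 (*Psmb3*) to 0.66 (*Psmb5*). Over all genes tested, 5873 of 11875 were above 0. *Psmb5*, the chymotrypsin-like subunit (chromosome 14 of GRCm38, 54614119 to 54618022, minus strand), stood at 45.5, 31.0, 47.0 and 82.6 CPM in WT 1 to WT 4 and at 94.5, 69.5, 63.6 and 96.9 CPM in YG8 1 to YG8 4. WT 4 lay among the YG8 libraries and the other 3 WT libraries below all of them. The difference was 0.66 on the log2 scale (standard error 0.30, unadjusted p = 0.0460, adjusted p = 0.819 from edgeR). *Psmb6*, the caspase-like subunit, stood at 47.9, 34.9, 47.7 and 89.7 CPM in WT and 71.8, 64.2, 74.9 and 107 CPM in YG8, again with WT 4 among the YG8 values (log2 fold change 0.53, standard error 0.30). *Psmb7*, the trypsin-like subunit, stood at 23.8, 47.6, 53.4 and 63.2 CPM in WT and 75.0, 69.7, 42.4 and 53.8 CPM in YG8, and its groups overlapped (log2 fold change 0.36, standard error 0.30). *Psmb4*, the β subunit with the most counts, averaged 84.3 ± 28.7 CPM in WT and 110 ± 15.4 CPM in YG8 (SD, n = 4 each). *Psmb2*, with the fewest, averaged 16.8 ± 11.9 and 18.96 ± 7.52 CPM (SD, n = 4 each). The summed level of the 7 genes ran from 284 to 545 CPM in WT and from 422 to 534 CPM in YG8.

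Without WT 4, the members higher at an unadjusted p were 10 (21.3%, beside 8.90% of all genes) and 0 were lower (beside 4.91%), with 0 at the adjusted threshold (beside 1.19%). *Psmb5* then differed by 0.98 (adjusted p = 0.0954 from edgeR), and *Psmb6*, *Psmb4*, *Psmb2* and *Psmb1* passed the unadjusted threshold too. WT 4 was the highest WT library for each of these β subunits. Its removal was therefore bound to raise their differences and gives no support. With the *Xist* level as a covariate, 1 member remained (*Psma7*), and without WT 2 and WT 3 together 1 remained (*Psma1*). *Psmb5* missed the unadjusted threshold without WT 1, WT 2, WT 3, YG8 1 or YG8 4 (log2 fold changes 0.48 to 0.61). *Psma7* missed it without WT 2 or YG8 4 (0.51 and 0.46), and *Psma1* without WT 1, WT 3, YG8 1 or YG8 2 (0.46 to 0.56).

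The α subunits, which form the outer rings and gate the barrel, were divided, with 4 of 7 above 0 and a median of 0.02. *Psma7* (chromosome 2, 180036374 to 180042433, minus strand) had the most counts of them, at 117, 90.7, 114 and 112 CPM in WT and 156, 143, 146 and 202 CPM in YG8. It was the 1 member of the 47 whose YG8 values all lay above all WT values (2.13% of members, beside 1.52% of all genes). The log2 fold change was 0.58 (standard error 0.24, unadjusted p = 0.0268, adjusted p = 0.787 from edgeR). *Psma1* (chromosome 7, 114264606 to 114276118, minus strand) stood at 24.9, 39.3, 32.0 and 37.8 CPM in WT and 55.3, 64.5, 36.7 and 45.8 CPM in YG8. Only YG8 3 fell within the WT range (log2 fold change 0.59, standard error 0.26, unadjusted p = 0.0348, adjusted p = 0.812). *Psma5*, with the fewest counts of the class, spread from 2.01 to 22.2 CPM over the WT libraries alone, which bounds what could be seen for it (log2 fold change −0.12, standard error 0.54).

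None of the 3 immunoproteasome subunits passed the unadjusted threshold in YG8 (edgeR). *Psmb8*, the counterpart of *Psmb5* (chromosome 17, 34197721 to 34201454, plus strand), stood at 12.8, 8.49, 13.8 and 8.46 CPM in WT and 12.5, 11.6, 10.2 and 11.2 CPM in YG8. All YG8 values lay inside the WT range (log2 fold change 0.07, standard error 0.26). *Psmb10*, the counterpart of *Psmb7* (chromosome 8, 105935735 to 105938444, minus strand), stood at 22.6, 12.5, 23.5 and 27.1 CPM in WT and 19.5, 14.8, 24.7 and 31.5 CPM in YG8 (log2 fold change 0.08, standard error 0.30). *Psmb9*, the counterpart of *Psmb6* (chromosome 17, 34181987 to 34187764, minus strand), stood at 1.53, 5.86, 14.6 and 4.09 CPM in WT and 4.70, 3.70, 2.40 and 1.63 CPM in YG8. WT 3 was the highest of the 8 and the others overlapped (log2 fold change −1.01, standard error 0.58, unadjusted p = 0.106, adjusted p = 0.846 from edgeR).

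**Figure D2:**
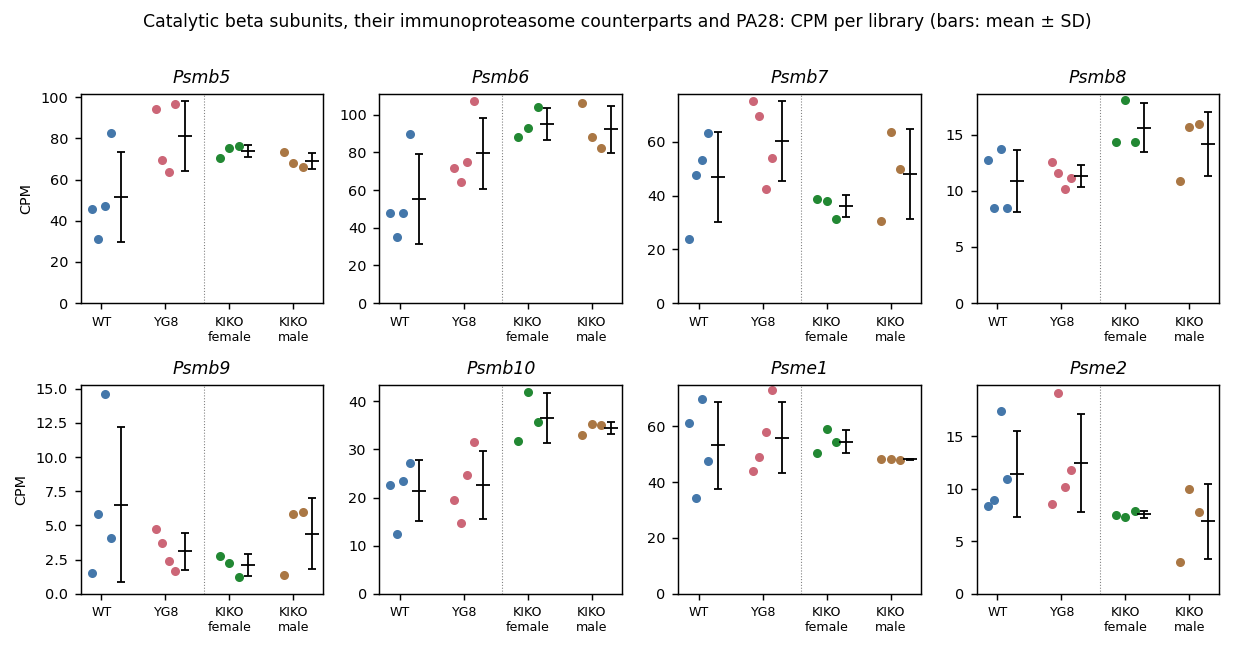
CPM of 8 genes in each library (points), with mean ± SD beside them, for libraries labelled WT (n = 4) and YG8 (n = 4) and for KIKO-700 females (n = 3) and males (n = 3). The dotted line parts experiments that were scaled separately. *Psmb5* and *Psmb6* show 3 WT libraries below the YG8 points and WT 4 among them, and *Psmb9* shows WT 3 at 14.6 CPM.

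The exchange of catalytic subunits was read as the log2 ratio of an immunoproteasome subunit to its standard counterpart in the same library, which no scaling factor enters. For *Psmb8* to *Psmb5* it was −1.83, −1.87, −1.76 and −3.28 in WT and −2.91, −2.58, −2.64 and −3.11 in YG8, so that WT 4 alone of the WT libraries lay with the YG8 libraries. *Psmb8* made up 9.30% of the counts of that pair in WT 4 (95% Wilson interval 7.26% to 11.8%, counting error only) and 21.5% to 22.7% in the other WT libraries. The mean ratio was −2.18 ± 0.73 in WT and −2.81 ± 0.25 in YG8 (SD, n = 4 each). The difference of −0.62 had an exact two-sided permutation p of 0.143, or 0.450 adjusted over the 6 ratio tests, and the design cannot give less than 0.0286. Without WT 4 the difference was −0.99. Since WT 4 alone of the WT libraries lay with the YG8 libraries, leaving it out fixed in advance that the groups would not overlap. The exact permutation p of 0.0571, the smallest that 3 against 4 can give, was fixed with it and gives no support.

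For *Psmb9* to *Psmb6* the ratio was −4.92, −2.57, −1.70 and −4.43 in WT and −3.92, −4.10, −4.92 and −5.99 in YG8. WT 2 and WT 3 were high and the other 6 libraries overlapped. *Psmb9* made up 23.5% of the pair in WT 3 (95% Wilson interval 18.99% to 28.6%). The difference of −1.33 had an exact permutation p of 0.229 (adjusted 0.450), and without WT 2 and WT 3 it was −0.06. For *Psmb10* to *Psmb7* the groups overlapped, at −1.10 ± 0.77 in WT and −1.43 ± 0.77 in YG8 (SD, n = 4 each; difference −0.33, exact permutation p = 0.6, adjusted 0.720).

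**Figure D3:**
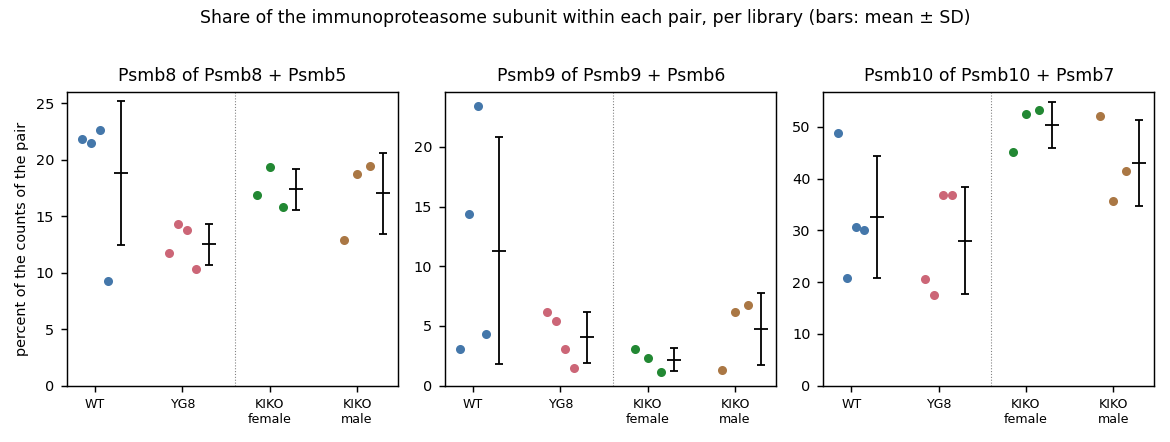
Counts of the immunoproteasome subunit as a percent of the counts of each pair, in each library (points), with mean ± SD beside them, for libraries labelled WT and YG8 (n = 4 each) and KIKO-700 females and males (n = 3 each). In the left panel 3 WT libraries lie at 21.5% to 22.7% and WT 4 at 9.30%, and in the middle panel WT 3 is the highest of the 14.

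The 19S cap showed no member past the unadjusted threshold in YG8. Of the 6 ATPases, 4 were above 0 (median 0.17), and the smallest p belonged to *Psmc2*, at 43.2 ± 10.2 CPM in WT and 58.3 ± 9.67 CPM in YG8 (SD, n = 4 each; log2 fold change 0.43). *Psmc3*, the ATPase with the most counts, ranged from 59.5 CPM in WT 2 to 210 CPM in YG8 4, and *Psmc5*, with the fewest, from 17.6 CPM in WT 2 to 47.9 CPM in WT 4. Of the 11 other cap subunits, 5 were above 0 (median −0.01). *Psmd4*, a receptor for ubiquitin chains, stood at 72.0, 63.8, 92.1 and 81.9 CPM in WT and 51.3, 47.2, 62.5 and 62.8 CPM in YG8. It was the 1 member whose YG8 values all lay below all WT values (2.13%, beside 2.15% of all genes), and it differed by −0.47 on the log2 scale (standard error 0.23, unadjusted p = 0.0622, adjusted p = 0.839 from edgeR). *Psmd7* had the most counts among these subunits (102 ± 11.97 CPM in WT, 97.02 ± 9.75 CPM in YG8; SD, n = 4 each) and *Psmd14*, the deubiquitinase of the lid, the fewest (19.3 ± 5.54 and 24.4 ± 8.65 CPM).

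Among the activators, *Psme1* (PA28α) stood at 61.2, 34.2, 69.9 and 47.4 CPM in WT and 44.0, 48.8, 57.9 and 73.0 CPM in YG8, and *Psme2* (PA28β) at 8.34, 8.94, 17.4 and 10.9 CPM and 8.52, 19.1, 10.2 and 11.8 CPM. Neither separated the groups (log2 fold changes 0.07 and 0.14, standard errors 0.27 and 0.32). *Psme2b* is a near-identical copy of *Psme2*, at 22.6 ± 4.93 CPM in WT and 30.4 ± 4.66 CPM in YG8 (SD, n = 4 each), so how the reads were divided between them is uncertain. *Psme4* (PA200) had the most counts of the class, at 85.1 ± 30.4 and 68.9 ± 5.35 CPM. Of the 8 assembly and inhibitor genes, 4 were above 0 (median 0.07). *Psmg2*, a core assembly chaperone, stood at 4.41, 12.7, 5.51 and 16.9 CPM in WT and 26.4, 15.8, 9.73 and 14.3 CPM in YG8 (log2 fold change 0.74, standard error 0.43), and *Psmg1*, its partner in the same dimer, averaged 3.78 ± 1.65 and 4.29 ± 0.77 CPM.

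**Figure D4:**
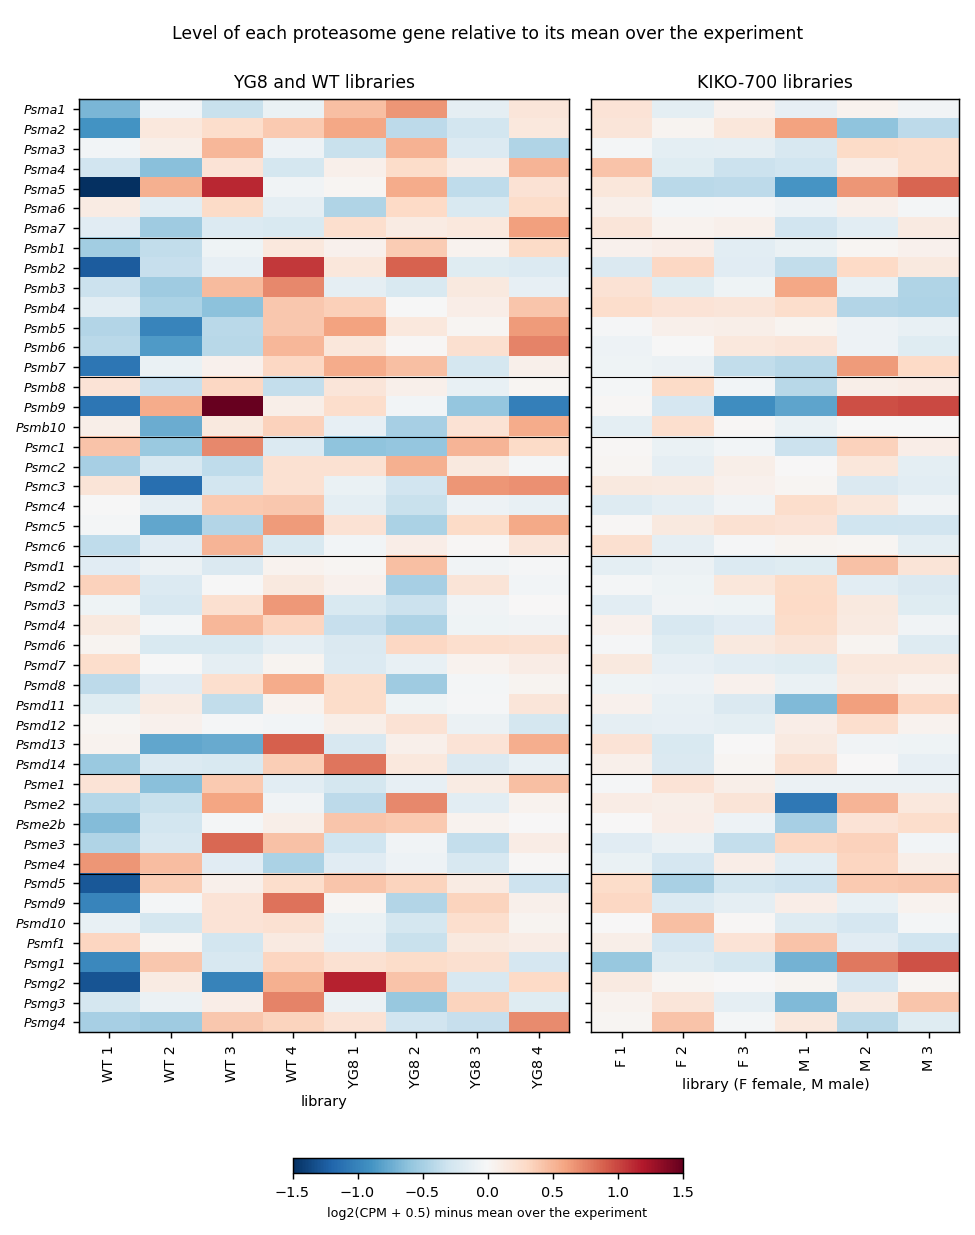
Level of each of the 47 genes in each library, as log2(CPM + 0.5) minus the mean of that gene over its experiment (red above, blue below), with lines between classes in the order α, standard β, immunoproteasome, ATPase, other 19S, activator, assembly or inhibitor. Columns WT 1 and WT 4 differ from each other in many rows, and in the KIKO-700 panel male 1 is opposite to males 2 and 3 in *Psma5*, *Psmb9*, *Psmd11* and *Psmg1*.

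KIKO-700 males and females have the same genotype, and their comparison asks whether the sexes differ. Here 0 members passed the adjusted threshold, beside 0.0678% of 11801 genes, and 3 of 47 passed at an unadjusted p, all higher in males. They make up 6.38% of members, beside 7.14% of all genes called in either direction (3.39% higher and 3.75% lower). They were *Psme3*, *Psmg1* and *Psmb9*, of 3 different classes. DESeq2 passed 3 members (beside 4.80% of all genes) and limma-voom 2 (beside 6.95%) at an unadjusted p, and both passed 0 at the adjusted threshold (beside 0.153% and 0.0593%). The members' median log2 fold change was 0.02, beside 0.01 over all genes tested. The groups did not overlap for 3 members higher in males (*Psmc4*, *Psmd12* and *Psme3*; 6.38%, beside 5.52% of all genes) and 3 lower (*Psmc3*, *Psme1* and *Psmd10*; 6.38%, beside 7.13%). *Psmc3* and *Psmd10* were named in this place after their values were seen.

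*Psme3*, the nuclear activator PA28γ (chromosome 11, 101316213 to 101323537, plus strand), stood at 17.3, 18.4 and 15.1 CPM in females and 24.3, 24.8 and 18.9 CPM in males. The log2 fold change was 0.42 (standard error 0.17, unadjusted p = 0.0292, adjusted p = 0.650 from edgeR). *Psmg1* (chromosome 16, 95979933 to 95990960, minus strand) stood at 0.883, 1.29 and 1.21 CPM in females and 0.752, 3.05 and 3.47 CPM in males, so that male 1 was the lowest of the 6 (log2 fold change 1.11, standard error 0.49, unadjusted p = 0.0406, adjusted p = 0.672). *Psmb9* stood at 2.78, 2.24 and 1.21 CPM in females and 1.38, 5.83 and 5.95 CPM in males. Here male 1 lay within the female range (log2 fold change 1.08, standard error 0.48, unadjusted p = 0.0459, adjusted p = 0.683). *Psme3* missed the unadjusted threshold without female 1, female 3 or male 2 (0.35 to 0.43), *Psmg1* without any 1 of the females or male 2 (0.95 to 1.22), and *Psmb9* without female 2, female 3, male 2 or male 3 (0.77 to 1.13).

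No other catalytic subunit passed the unadjusted threshold between the sexes (edgeR). *Psmb5* stood at 70.7, 75.3 and 76.1 CPM in females and 73.6, 67.8 and 66.1 CPM in males (log2 fold change −0.10, standard error 0.14). *Psmb6* stood at 88.2, 92.6 and 104 CPM and 106, 88.3 and 82.1 CPM (−0.04, standard error 0.16), and *Psmb7* at 38.6, 38.0 and 31.4 CPM and 30.4, 63.5 and 49.8 CPM (0.41, standard error 0.23). These groups overlapped. *Psmb8* stood at 14.4, 18.1 and 14.3 CPM in females and 10.9, 15.7 and 16.0 CPM in males (−0.14, standard error 0.19), and *Psmb10* at 31.8, 42.0 and 35.8 CPM and 33.0, 35.2 and 35.1 CPM (−0.09, standard error 0.16). The ratio of *Psmb9* to *Psmb6* was −4.96, −5.34 and −6.36 in females and −6.20, −3.91 and −3.78 in males, a difference of 0.92 (exact two-sided permutation p = 0.300, adjusted 0.450, where 3 against 3 cannot give less than 0.100). The ratio of *Psmb8* to *Psmb5* differed by −0.05 (exact permutation p = 0.900, adjusted 0.900) and that of *Psmb10* to *Psmb7* by −0.43 (exact permutation p = 0.200, adjusted 0.450).

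In the other classes, *Psme1* stood at 50.4, 58.9 and 54.4 CPM in females and 48.2, 48.3 and 48.0 CPM in males (log2 fold change −0.18, standard error 0.15), and *Psme2* at 7.45, 7.30 and 7.90 CPM and 3.01, 9.99 and 7.73 CPM. *Psmb4* averaged 152 ± 4.38 CPM in females and 116 ± 35.4 CPM in males (SD, n = 3 each), with male 1 at the female level. *Psmc4* averaged 41.8 ± 2.05 and 50.1 ± 5.49 CPM, and *Psmd12* 30.6 ± 0.28 and 37.0 ± 2.87 CPM (SD, n = 3 each). Of the 11 cap subunits other than ATPases, 10 were above 0, beside 6007 of all 11801 genes. Their median was 0.09 and their largest value 0.32 (*Psmd1*), and 0 of them passed the unadjusted threshold. *Psmd13* had the most counts of these, at 105 ± 15.4 CPM in females and 105 ± 8.23 CPM in males, and *Psmd14* the fewest, at 18.5 ± 2.00 and 19.6 ± 2.53 CPM. *Psmc6*, the ATPase with the fewest counts here, averaged 43.9 ± 5.90 and 42.0 ± 3.04 CPM, and *Psmf1*, which encodes the inhibitor PI31, 18.9 ± 3.09 and 18.9 ± 5.45 CPM.

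The KIKO-700 counts depended on male 1. Without that library, 16 members passed the unadjusted threshold (34.0%, beside 21.3% of 12245 genes), of which 11 were higher (23.4%, beside 10.9%) and 5 lower (10.6%, beside 10.4%) in males 2 and 3, and 9 passed the adjusted one (19.1%, beside 7.06%). The 9 were, higher, *Psmb9* (log2 fold change 1.49, adjusted p = 0.00253), *Psmg1* (1.53, adjusted p = 0.00952), *Psma5* (1.09), *Psmb7* (0.65), *Psmd11* (0.56) and *Psmd1* (0.47), and, lower, *Psmb4* (−0.68, adjusted p = 0.00198), *Psma2* (−0.63) and *Psmc5* (−0.43), all from edgeR. These 16 were picked by the fit without male 1, which favours genes in which male 1 lies apart. The count that follows was not made over all genes, so whether it is particular to the proteasome is not known. In 12 of the 16, male 1 lay on the other side of the female mean from the mean of males 2 and 3. *Psma5* for example stood at 3.41, 2.12 and 2.14 CPM in females, 1.38 CPM in male 1 and 4.99 and 5.85 CPM in males 2 and 3, and *Psma2* at 108, 98.3 and 107 CPM, 145 CPM, and 62.3 and 72.7 CPM. In the same fit 864 genes of all kinds passed the adjusted threshold, beside 8 with male 1 included. *Psma2*, *Psmb7*, *Psmc5*, *Psmd1* and *Psmd11* were singled out after their values were seen.

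**Figure D5:**
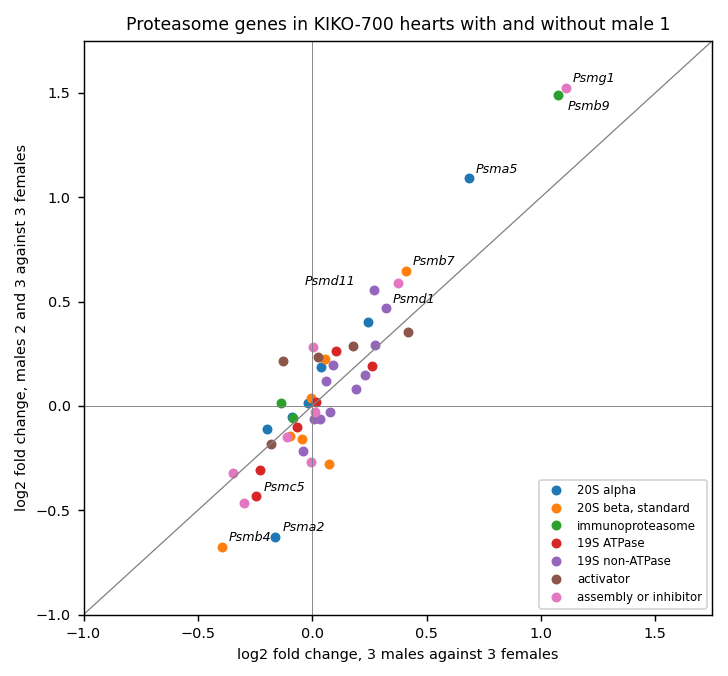
Log2 fold change of 47 proteasome genes, KIKO-700 males minus females, with all 3 males (x axis) and with males 2 and 3 only (y axis), coloured by class, with the line of equal values. Named points passed the adjusted threshold without male 1, and *Psma5* lies at 1.09 on the y axis against 0.68 on the x axis.

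Around the proteasome stand the genes that supply it. Of 37 ubiquitin, shuttle and regulator genes tested, 31 were below 0 in YG8 (median log2 fold change −0.18). Over all genes tested, 6002 of 11875 were below 0. At an unadjusted p 5 of the 37 passed, all lower, beside 3.01% of all genes. None of the 37 passed the adjusted threshold. *Uba1*, the main ubiquitin-activating enzyme, stood at 90.03, 76.8, 65.9 and 87.0 CPM in WT and 62.3, 48.4, 57.2 and 54.8 CPM in YG8 (log2 fold change −0.52), and *Adrm1*, a ubiquitin receptor of the cap, at 9.49, 6.76, 9.11 and 6.86 CPM and 2.74, 4.66, 5.64 and 5.21 CPM (−0.82). The YG8 values of both lay below all WT values, as did those of 2.15% of all genes. *Fbxo21* (−0.66), a substrate adaptor of a ubiquitin ligase, and *Ubqln2* (−0.83), a shuttle, were lower as well, with *Ubqln2* at 13.1 CPM in WT 2 and 2.96 to 5.47 CPM in the other 7 libraries. Without WT 2 the difference for *Ubqln2* was −0.27 (unadjusted p = 0.425 from edgeR). Of 22 alternative settings, *Uba1* stayed past the unadjusted threshold in 14, *Fbxo21* in 12, *Ubqln2* in 12 and *Adrm1* in 21. *Ubb* (0.00, standard error 0.29), *Pomp*, the core maturation factor (0.24, standard error 0.32), and *Nfe2l1*, which encodes the transcription factor that induces proteasome genes (−0.12, standard error 0.22), did not pass. In KIKO-700 males, *Ubqln4* (0.43), a shuttle factor, was higher and *Rps27a* (−0.50), a fusion of ubiquitin to a ribosomal protein, was lower, where 3 of 37 tested were called higher (beside 3.39% of all genes) and 1 lower (beside 3.75%) at an unadjusted p. *Ubqln4* missed the unadjusted threshold without female 1, female 2, male 1 or male 2, and *Rps27a* without female 2 or male 2. *Nfe2l1* (0.19, standard error 0.16), *Ubb* (0.09, standard error 0.15) and *Pomp* (−0.30, standard error 0.19) did not pass.

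The immunoproteasome acts with MHC class I presentation, and 10 of 11 such genes tested were below 0 in YG8 (median −0.40). Of all genes, 6002 of 11875 were. *Tap1*, the peptide transporter whose start overlaps that of *Psmb9* on the opposite strand, stood at 9.30, 3.30, 2.33 and 2.63 CPM in WT and 1.57, 1.79, 3.24 and 2.06 CPM in YG8 (−1.06, standard error 0.47, unadjusted p = 0.0391, adjusted p = 0.816 from edgeR). WT 1 was its highest library, whereas WT 3 was that of *Psmb9*, and without WT 1 the difference for *Tap1* was −0.38 (unadjusted p = 0.383 from edgeR). *H2-K1*, a class I heavy chain, differed by −0.58 (unadjusted p = 0.0315). Of 26 interferon response genes tested, *Irf9* (−0.73) and *Igtp* (−1.20) were lower and *Xaf1* (1.25) was higher at an unadjusted p, beside 3.01% of all genes called lower and 3.04% called higher. In both lists 0 genes passed the adjusted threshold. *Xaf1* stayed past the unadjusted threshold in 13 of 21 alternative settings, and *Irf9* and *Igtp* in 22 of 22.

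In KIKO-700 males, *Tap1* (−0.62) and *H2-K1* (−0.48) were lower at an unadjusted p, of 10 class I genes tested and beside 3.75% of all genes, while *Psmb9* was higher. *Irf7* (−0.54), *Irf9* (−0.42), *Igtp* (−0.52), *Gbp2* (−0.50) and *Oas1a* (−0.71) were among the 6 of 28 interferon genes called lower (beside 3.75% of all genes). Of the 28, 21 were below 0, beside 5794 of all 11801 genes. In both lists 0 genes passed the adjusted threshold in KIKO-700. Without female 2, *Tap1* (−0.29), *H2-K1* (−0.31), *Igtp* (−0.15), *Irf7*, *Irf9*, *Gbp2* and *Oas1a* all missed the unadjusted threshold. Without male 1, *Irf9* (−0.27), *Irf7* and *Gbp2* missed it. Without male 2, each of the genes named here except *Gbp2* missed it. Some of these calls were also lost without other single libraries. The 10 leukocyte markers summed to 134 to 151 CPM in females and 106 to 119 CPM in males, and the 10 macrophage markers to 630 to 775 CPM and 533 to 667 CPM, with *Ptprc* and *Adgre1* detected in all 6 libraries. Of the 10 leukocyte markers, 9 were below 0 and 2 were called lower at an unadjusted p (*Cd52*, −0.80, and *Tyrobp*, −0.51), beside 3.75% of all genes. Of the 10 macrophage markers, 7 were below 0. Of these markers 3 were called lower (*Adgre1*, −0.74, *C1qc*, −0.42, and *Lyz2*, −0.52), beside 3.75% of all genes, and 1 higher (*Cd163*, 0.46), beside 3.39%. In YG8, macrophage markers summed to 325 to 483 CPM, against 414 to 616 CPM in WT. Of the 10, 2 were called lower (*Csf1r*, −0.72, and *Cd163*, −1.05), beside 3.01% of all genes, while 0 of 9 leukocyte markers tested were called. In both experiments 0 of the leukocyte and macrophage markers passed the adjusted threshold. Which of these markers to name was decided once their values were known. The part of these cells in the results above was not tested.

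When all 14 libraries were scaled together, 42 of the 47 proteasome genes tested overlapped between the 6 KIKO-700 libraries and the 8 of the YG8 experiment. In KIKO-700, 3 lay wholly above (beside 6.70% of all genes), namely *Psmd13*, at 84.3 to 114 CPM against 21.3 to 66.9 CPM, *Psmc5*, at 57.6 to 83.8 CPM against 18.7 to 48.4 CPM, and *Psmf1*, at 14.2 to 24.1 CPM against 6.30 to 10.9 CPM. Wholly below (beside 4.28% of all genes) lay *Psmd7*, at 56.2 to 70.5 CPM against 88.0 to 131 CPM, and *Psmc6*, at 36.4 to 47.7 CPM against 49.3 to 84.8 CPM. Line, cohort and library batch cannot be told apart in this contrast, and these genes were chosen for naming once their values were known. The count of *Psmb10* exceeded that of *Psmb7* in females 2 and 3 and in male 1 of KIKO-700 and in 0 of the 8 libraries of the YG8 experiment. The experiments still overlapped. *Psmb10* made up 48.8% of the counts of the pair in WT 1, above 45.2% in female 1, 35.7% in male 2 and 41.4% in male 3.

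The remaining members were too low to test. *Psma8*, the testis α subunit, had 1 to 8 counts per library and *Psmb11*, the catalytic subunit of the thymic cortex, 0 counts in all 14, while *Psmc3ip* had 3 to 18. Named pseudogenes of *Psmb5*, *Psmb6* and *Psmb7* had at most 3 counts in any library. On the strand of 10 members another annotated gene overlaps, most of them small or predicted, and reads there cannot be assigned with certainty. The study's methods describe the counted reads as stranded, while the processing notes name a different counter with no strand setting, so reads where *Psmb9* and *Tap1*, or another antisense pair, overlap may not be told apart either.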

How the data were processed

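Lexogen QuantSeq FWD libraries of heart RNA, which yield about 1 tag per transcript and so do not scale with transcript length, were analysed from raw counts. The files as deposited hold, for each library, whole-number raw counts by Ensembl identifier that the authors had not normalized. The submitters' processing notes name STAR 2.5.0a, HTSeq 0.6.1 and GRCm38.p6, whereas the study's methods name ShortRead, Rsubread and limma, and these accounts were not reconciled. The share of PCR copies is unknown, since molecular identifiers are not given in the sources used here, and intervals cover counting error only. Annotation (GENCODE M21, GRCm38) matched 54495 of 54532 identifiers.

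Conditions came from the labels. In R 4.3.3, genes were kept by filterByExpr, libraries were scaled with TMM factors, and robust quasi-likelihood fits of edgeR 4.0.16 were tested, 1 fit per experiment over all genes, with Benjamini-Hochberg adjustment and a threshold of 0.05. Standard errors were derived from the fold change and the F statistic. CPM use the same scaling and compare libraries within an experiment. Ratios used log2((count + 0.5)/(count + 0.5)) and exact permutation of the labels, with the two-sided p taken as 2 times that of the smaller tail. Nothing says how mice were housed or extracted together, so p-values measure the spread between these libraries. No 2 libraries of a group agreed within sampling noise (lowest chi-square per degree of freedom 3.69).

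The members and all gene lists were chosen with earlier results of these data known. Named genes are the standard and inducible catalytic subunits, *Psme1* and *Psme2*, members at an unadjusted p under 0.05, the member of each class with the smallest p, the most and the fewest counts, listed partner, class I and interferon genes at an unadjusted p under 0.05, and *Nfe2l1*, *Pomp* and *Ubb*. Results on the gene targeted in these lines and on some of the listed genes are not reported here.

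On simulated counts with the YG8 experiment's depth and spread, 9 of 100 genes changed by a log2 of 1 passed the adjusted threshold and 72 passed without adjustment. For the KIKO-700 experiment these were 70 and 94. The biological coefficient of variation was 0.351 and 0.170. Alternatives were DESeq2 1.42.0 and limma-voom (limma 3.58.1), a fit of all 14 libraries together, a replicate block, RLE or upper-quartile factors or none beyond library size, a filter of at least 10 counts in each library or none, each library left out, pseudogenes added to their parents, mitochondrial DNA and Gm genes left out, a pseudocount of 2, and, in the YG8 experiment, an *Xist* covariate and the removal of WT 2 and WT 3. Adding *Psme2b* to *Psme2* and leaving WT 2 and WT 3 out of the ratios were chosen after seeing the data.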

Additional observations from a re-analysis of the deposited data

Results flagged for a closer look

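Among 100 sets of 4 values (the 47 genes and 3 ratios, each in the libraries labelled WT and YG8), 3 held a library far from the other 3 by Dixon's criterion, which chance alone meets in about 1 set of 20. The log2 ratio of *Psmb8* to *Psmb5* was −3.28 in WT 4, beside −1.87 to −1.76 in the other WT libraries. *Psmd1*, the largest subunit of the 19S base, stood at 106 CPM in YG8 2, beside 74.0 to 78.5 CPM in the other YG8 libraries. *Psmg1* stood at 3.15 CPM in YG8 4, beside 4.60 to 4.78 CPM in the others.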

How the results depend on the processing

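At the adjusted threshold 0 members were called in the YG8 experiment under every alternative run, and in KIKO-700 under every one but the removal of male 1 (leave-one-out range 0 to 9). At an unadjusted p, the 3 members called in YG8 became 5 with no filter, 1 with the *Xist* covariate, 1 without WT 2 and WT 3, and 1 (without YG8 1 or YG8 4) to 10 (without WT 4) with a library left out. Upper-quartile factors also gave 3 calls, with *Psmb5* lost and *Psmd4*, lower, gained. In KIKO-700 the 3 became 6 with no filter, 1 with at least 10 counts in every library, 1 with all 14 libraries in 1 fit, and 0 (without female 3 or male 2) to 16 (without male 1), and upper-quartile factors gave 2 higher and 1 lower, as limma-voom gave 1 higher and 1 lower. With libraries left out, the difference in the ratio of *Psmb8* to *Psmb5* ran from −0.99 to −0.48 in YG8 and from −0.18 to 0.17 in KIKO-700, that of *Psmb9* to *Psmb6* from −1.83 to −0.76 and from 0.50 to 1.71, and that of *Psmb10* to *Psmb7* from −0.61 to 0.0103 (without WT 1) and from −0.69 to −0.21. With a library left out, the exact test cannot give a p below 0.0571 in YG8 or 0.2 in KIKO-700. The cause of these shifts was not tested.

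Replicate numbers did not pair the libraries (correlations of same-numbered libraries −0.23, 0.25, −0.03 and 0.13 in the YG8 experiment and −0.16, −0.04 and −0.19 in KIKO-700, with 2 of 8 and 0 of 6 libraries closest to their own number). A replicate block gave 4 members in YG8 and 2 in KIKO-700.

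Over the alternatives, 28 single results (the members and listed genes at an unadjusted p under 0.05 in 1 comparison) gave 551 values, of which 383 stayed past that threshold, 168 did not, and 0 changed direction. These results were picked for passing the main fit, and the alternatives reuse its libraries. A kept direction was therefore nearly fixed in advance and gives no support. *Psmb9*, *Psmg1* and *Psma8* have few counts, which limits what can be seen for them at this depth.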
